A study of Mus musculus with 4 samples.

Results

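The enzymes that write, copy and remove DNA methylation were followed in ribosome-protected fragments (RPFs) of mouse leptotene/zygotene spermatocytes, germ cells in early meiotic prophase. The set was fixed by name as *Dnmt1*, *Dnmt3a*, *Dnmt3b*, *Dnmt3l*, *Uhrf1*, *Tet1*, *Tet2* and *Tet3*, and 7 of these 8 genes had a row among the 11598 genes of the table, whereas *Dnmt3l* was not analysed here. RPFs are the stretches of mRNA that a translating ribosome shields from nuclease, so that their number reflects both how much mRNA a cell holds and how heavily ribosomes occupy it. RPF abundance is given in FPKM, the reads on a gene per kilobase of its length and per 1000000 reads counted on genes, and sums over genes are given in RPM, the same without the length.

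Spermatocytes were sorted by DNA dye staining from testes of 12 dpp (days post partum) mice, and 2 control and 2 *Eef1g*-cKO libraries were made, which the series describes as independent biological replicates. In the *Eef1g*-cKO mice, *Stra8*-GFPCre, a recombinase driven by a promoter active in male germ cells from the spermatogonial stage on, removed exons of a floxed *Eef1g* allele on the C57BL/6J background. *Eef1g* encodes a subunit of translation elongation factor eEF1. The controls are labelled wild type, the labels give no Cre status for them, and whether deletion was complete in each sorted cell was not measured here. *Eef1g* itself had 107 and 58 reads in control against 0 and 4 reads in *Eef1g*-cKO, in the direction that the labels give.

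Depth was uneven, with 2479504 and 1384282 counted reads in the control libraries against 223906 and 407979 in those of *Eef1g*-cKO, a 6.11-fold difference in the group means. The sorted cell type was checked against marker lists, of which all 15 leptotene and zygotene genes were measured. The summed reads of these genes were 4788 and 3759 RPM in control against 9745 and 9383 in *Eef1g*-cKO, and 5 increased while none decreased (limma, adjusted p under 0.05 with a log2 fold change beyond 1 in size). By this threshold 2.87% of the 10475 genes tested increased and 4.97% decreased. Markers of spermatogonia, the mitotic cells from which spermatocytes arise, went the other way, from 3669 and 4538 RPM to 1300 and 1272, with 8 of 15 decreased, none increased and a median log2 fold change of -1.76. Markers of Sertoli cells, the somatic nurse cells of the tubule, summed to 1826, 711, 933 and 755 RPM in the order control 1, control 2, *Eef1g*-cKO 1 and *Eef1g*-cKO 2. None of 12 was called, 11 were lower and 1 higher, and the median log2 fold change was -1.12. The higher gene was *Ctsl* (0.34), while *Gata4* had 27 and 6 reads in control and 0 in both *Eef1g*-cKO libraries, which are shallower. Markers of peritubular cells, the contractile cells around the tubule, summed to 150 and 130 RPM in control against 53.6 and 71.1 in *Eef1g*-cKO, with all 5 lower, none called and a median log2 fold change of -1.36. Pachytene markers summed to 583 and 441 RPM in control against 746 and 870 in *Eef1g*-cKO. None of the 7 tested was called, their median log2 fold change was 0.36, and *Pou5f2*, *Ccna1*, *Spag6* and *Pgk2* were not analysed here. The 3 Leydig cell markers analysed summed to between 4.90 and 11.6 RPM. *Hsd3b1* had 0 reads in both *Eef1g*-cKO libraries, and *Cyp11a1* had 0 there and in the first control library. *Star* went the other way, from 0.705 and 0.541 to 2.23 and 1.22 FPKM, on 7, 3, 2 and 2 reads. The 8 macrophage markers were not analysed here. The fall of spermatogonial markers and the lower sums of peritubular markers moved with the falls described below, and their part in them was not tested. In sorted bulk cells, fewer cells of a type cannot be told apart from fewer RPFs per cell.

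DNA methylation is a methyl group on cytosine, mostly in CpG dinucleotides, that in germ cells silences transposons and marks imprinted loci. DNMT1 is the maintenance methyltransferase, which copies methylation onto the new strand after replication and is brought to hemimethylated DNA by UHRF1. DNMT3A and DNMT3B are the de novo methyltransferases, which with their cofactor DNMT3L set up the male pattern mainly in prospermatogonia, before birth and around it. TET1, TET2 and TET3 are dioxygenases that oxidise methylcytosine as a step towards its removal. In male meiosis the DNA is replicated just before leptotene, so that maintenance has to act on newly made strands at the time when meiotic prophase begins.

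Apart from *Uhrf1*, the measured members belong to 2 enzyme families. The coding sequence around their active sites is printed here, since related genes can share stretches as short as a footprint. The stretches were found and lined up by the active site motif, so that part of their likeness was set beforehand. Sequences are from RefSeq on GRCm38.p6, 30 bases each, 5′ to 3′ on the coding strand. Capitals mark the codon of the catalytic cysteine in the methyltransferases and, in the TET genes, the codons of the motif that holds the catalytic iron, from its histidine to its aspartate.
Dnmt1 (chr9:20911798-20911827, minus strand): ggtgggccacccTGCcagggcttcagtggc
Dnmt3a (chr12:3902414-3902443, plus strand): ggaggcagtcccTGCaatgacctctccatt
Dnmt3b (chr2:153677204-153677233, plus strand): ggtggaagcccaTGCaatgatctctctaac
Tet1 (chr10:62814457-62814486, minus strand): tgtgcccattctCACAAGGACattcacaac
Tet2 (chr3:133471361-133471390, minus strand): tctgctcattccCACAGAGACcagcagaac
Tet3 (chr6:83373215-83373244, minus strand): tgtgcccacgccCACAAGGACcaacataac
All 6 stretches lie in coding exons. *Dnmt3a* and *Dnmt3b* shared 22 of these 30 bases and *Dnmt1* and *Dnmt3a* 15, while the TET genes shared between 21 and 23 in pairs. Of all 28-base stretches of coding sequence, about the length of a footprint, none of any member occurred in a transcript of another member. For *Dnmt1*, *Tet1*, *Tet2* and *Tet3* none occurred in a transcript of any other gene. The share was 1.81% for *Dnmt3a* (the pseudogene *Dnmt3a-ps1*), 27.7% for *Dnmt3b* (its close paralog *Dnmt3c*) and 48.1% for *Uhrf1* (*Gm15953* and *Gm5648*), so reads of *Dnmt3b* and *Uhrf1* may be shared with these genes, and how reads with several matches were counted is not given in the sources used here.

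In control, the maintenance pair stood at the top and 2 of the TET genes near the bottom of the table. Divided by coding length, the mean of the 2 control libraries was 214 ± 48.7 RPM per coding kilobase for *Dnmt1* and 123 ± 36.4 for *Uhrf1* (SD, n = 2). It was 63.1 ± 2.49 for *Dnmt3a*, 26.6 ± 4.29 for *Dnmt3b* and 11.5 ± 1.60 for *Tet3* on the same scale. *Tet2* and *Tet1* came last at 0.328 ± 0.0680 and 0.158 ± 0.0563. The same order held in FPKM, where *Dnmt3a* and *Dnmt3b* (17.3 ± 0.683 and 15.9 ± 2.56) did not differ beyond their spread. Of the deposited gene length, 27.4% was coding for *Dnmt3a* and 59.7% for *Dnmt3b*. Among all genes of the table, mean control FPKM put *Dnmt1* at percentile 96.4, *Uhrf1* at 91.3, *Dnmt3a* at 66.5, *Dnmt3b* at 64.5 and *Tet3* at 40.5, with *Tet2* and *Tet1* below 1% of genes.

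**Figure D1:**
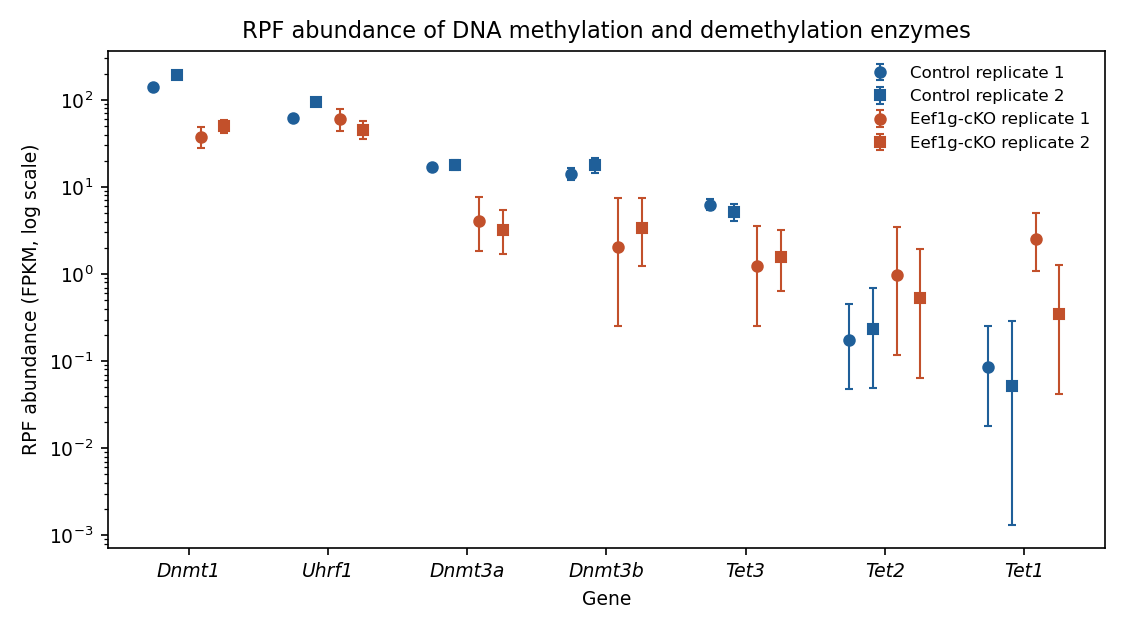
RPF abundance of each member in FPKM (log axis) in the 4 libraries, ordered by the control mean; bars are exact Poisson 95% intervals of the reads, for counting error only. The *Eef1g*-cKO points of *Dnmt1*, *Dnmt3a*, *Dnmt3b* and *Tet3* lie well below the control points, those of *Uhrf1* lie just below, and *Tet1* and *Tet2* rest on between 1 and 8 reads per library.

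Of the 7 measured members, 5 averaged 1 FPKM or more across all 4 libraries and were tested with limma on log2(FPKM + 1), a scale that understates changes of low genes. By Benjamini-Hochberg adjusted p under 0.05 with a log2 fold change beyond 1 in size, 3 members decreased and none increased, against 4.97% and 2.87% of the 10475 genes tested. By unadjusted p with the same fold, 4 members decreased and none increased, against 16.3% and 7.32% of genes. Both *Eef1g*-cKO libraries lay below both control libraries for all 5 tested members, as they did for 37.7% of genes. The median log2 fold change of the 5 was -1.90, and that of all genes tested was -0.23, with 59.1% of genes negative. Without either control library none of the 3 was called by adjusted p, and neither was any other gene tested (limma, against 548 increased and 1013 decreased by unadjusted p without the first and 479 and 795 without the second). Their log2 fold changes were then -2.13 and -1.67 for *Dnmt1*, -2.03 and -1.95 for *Dnmt3a* and -2.35 and -2.04 for *Dnmt3b*. Without the first and the second *Eef1g*-cKO library these fold changes were -1.70 and -2.10 for *Dnmt1*, -2.12 and -1.86 for *Dnmt3a* and -1.93 and -2.45 for *Dnmt3b*. With 1 library of a group left out, that group's spread is taken to be like that of the other group, whose depth differs.

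*Dnmt1*, the maintenance methyltransferase (chromosome 9, 20907206 to 20959888 on the minus strand, GRCm38.p6), had 139 and 193 FPKM in control against 37.5 and 49.8 FPKM in *Eef1g*-cKO. These values rest on 2178 and 1682 reads in control against 53 and 128 reads in *Eef1g*-cKO, with exact counting intervals of 28.1 to 49.1 and 41.5 to 59.2 FPKM in the latter. The groups lay far apart on the scale of these intervals. The mean fell from 166 ± 37.8 to 43.7 ± 8.64 FPKM (SD, n = 2 each), with a log2 fold change of -1.90 (SE 0.26, 95% interval -2.55 to -1.25, limma adjusted p = 0.0296). Its place among all genes moved from percentile 96.4 to 84.5.

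*Uhrf1*, the DNMT1 recruiter (chromosome 17, 56303337 to 56323486, plus strand), had 62.6 and 95.8 FPKM in control against 59.9 and 45.7 FPKM in *Eef1g*-cKO. The first library of each genotype nearly met, and the spread between the control libraries was larger than that gap. The log2 fold change was -0.56 (SE 0.29, 95% interval -1.27 to 0.16, limma adjusted p = 0.248), so *Uhrf1* was not called, and the interval holds both no change and a fall of more than 1. Its percentile was 91.3 in control and 87.1 in *Eef1g*-cKO, where its mean of 82.1 RPM per coding kilobase exceeded the 56.4 of *Dnmt1*, the reverse of their order in control. In FPKM, the *Eef1g*-cKO values of these 2 genes overlapped.

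A ratio of reads within a library does not depend on how libraries are scaled to each other. *Dnmt1* had 3.84 and 3.48 reads for each *Uhrf1* read in control, with exact 95% counting intervals of 3.50 to 4.22 and 3.14 to 3.85. In *Eef1g*-cKO it had 1.08 and 1.88, with intervals of 0.720 to 1.63 and 1.39 to 2.56. Neither the ratios nor their counting intervals overlapped between genotypes, and the mean difference was -1.36 on the log2 scale. With 2 libraries against 2, an exact permutation test cannot go below a two-sided p of 0.333, and no other test of this difference was run. How often gene pairs separate between genotypes was not computed. Single genes lay below control in both *Eef1g*-cKO libraries for 37.7% of those tested and above for 24.6%. The ratio of *Tet3* to *Tet2* was lower in both as well, and that of *Tet1* to *Tet2* higher. Both rest on few *Tet2* reads, with counting intervals that overlapped. Reads of *Uhrf1* may be shared with other genes, as given above. *Dnmt1* made up 62.4% and 64.7% of all member reads in control against 42.1% and 56.6% in *Eef1g*-cKO, and *Uhrf1* 16.3% and 18.6% against 38.9% and 30.1%.

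**Figure D2:**
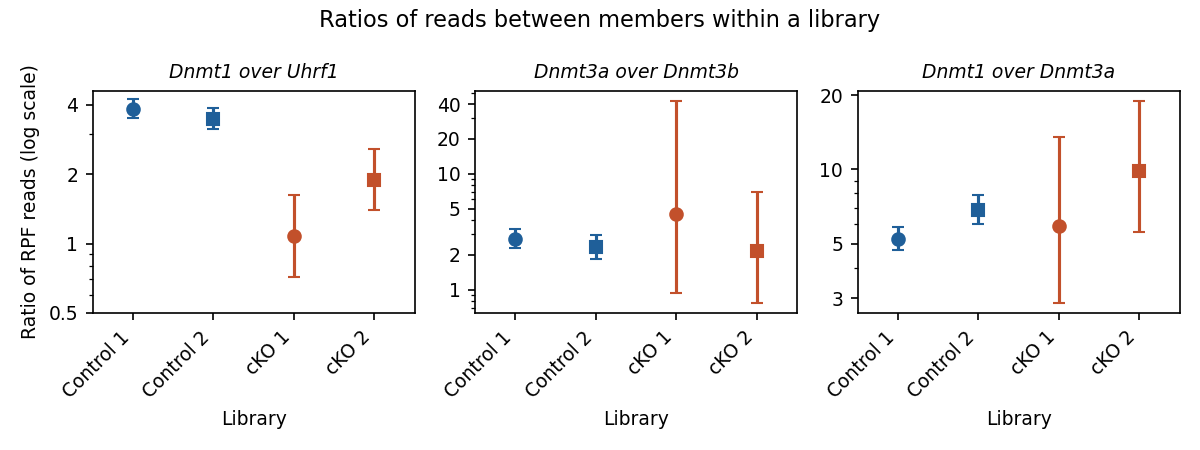
Ratios of RPF reads between pairs of members within each library (log axes), with exact binomial 95% counting intervals; blue is control and orange *Eef1g*-cKO. The ratio of *Dnmt1* to *Uhrf1* is lower in both *Eef1g*-cKO libraries, whereas *Dnmt3a* over *Dnmt3b* and *Dnmt1* over *Dnmt3a* overlap between genotypes.

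The de novo methyltransferases fell together. *Dnmt3a* (chromosome 12, 3801559 to 3914443, plus strand) had 16.8 and 17.8 FPKM in control against 4.04 and 3.20 FPKM in *Eef1g*-cKO, from 415 and 245 against 9 and 13 reads. The control libraries were nearly equal and both *Eef1g*-cKO libraries were far below them, with a log2 fold change of -1.99 (SE 0.36, 95% interval -2.89 to -1.10, limma adjusted p = 0.0383). *Dnmt3b* (chromosome 2, 153649411 to 153687730, plus strand) had 14.1 and 17.7 FPKM in control against 2.06 and 3.40 FPKM in *Eef1g*-cKO, from 151 and 106 against 2 and 6 reads. Its log2 fold change was -2.19 (SE 0.41, 95% interval -3.21 to -1.17, limma adjusted p = 0.0401), on so few *Eef1g*-cKO reads that the counting interval of the first library runs from 0.250 to 7.46 FPKM. That interval still ends below both control values. *Dnmt3a* had 2.75 and 2.31 reads for each *Dnmt3b* read in control against 4.50 and 2.17 in *Eef1g*-cKO, which overlap, and *Dnmt1* had 5.25 and 6.87 reads for each *Dnmt3a* read in control against 5.89 and 9.85 in *Eef1g*-cKO, which overlap too. Within these counting errors no difference between the falls of the 3 methyltransferases was detectable at this depth.

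*Tet3*, the main TET gene by RPFs in control (chromosome 6, 83362373 to 83457208, minus strand), had 6.29 and 5.17 FPKM in control against 1.23 and 1.57 FPKM in *Eef1g*-cKO, from 170 and 78 against 3 and 7 reads. All 4 values keep the genotypes apart, and the mean went from 5.73 ± 0.792 to 1.40 ± 0.244 FPKM (SD, n = 2 each). The log2 fold change was -1.49 (SE 0.46, 95% interval -2.62 to -0.35), which passed by unadjusted p (0.0190) and not after adjustment (limma adjusted p = 0.0981). On the recovered reads *Tet3* passed the adjusted threshold, with a log2 fold change of -1.91 in edgeR's quasi-likelihood test (adjusted p = 0.00705) and -1.94 in DESeq2 (adjusted p = 0.0491). The 3 methyltransferase genes were called decreased by both as well, which makes 4 members called, where edgeR called 11.2% of genes decreased and DESeq2 5.34%.

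**Figure D3:**
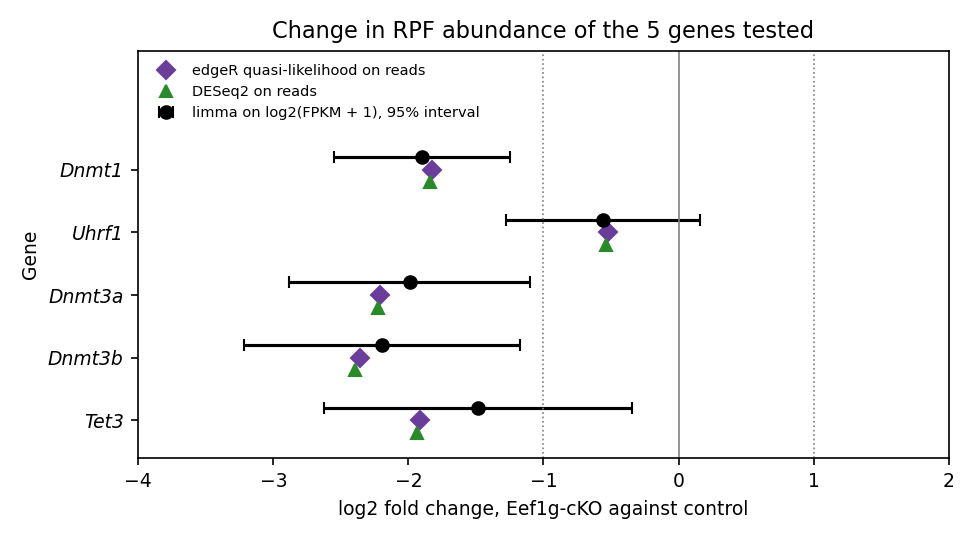
Log2 fold change of *Eef1g*-cKO against control for the 5 tested members (circles with 95% intervals, limma on log2(FPKM + 1)), beside edgeR (diamonds) and DESeq2 (triangles) on the recovered reads; dotted lines mark the fold threshold. The limma intervals of *Dnmt1*, *Dnmt3a* and *Dnmt3b* lie wholly below -1, that of *Tet3* ends at -0.35 and that of *Uhrf1* crosses 0.

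*Tet1* (chromosome 10, 62804570 to 62887469, minus strand) and *Tet2* (chromosome 3, 133463677 to 133545136, minus strand) had a mean under 1 FPKM and were not tested in the main comparison. *Tet1* had 3 and 1 reads in control against 8 and 2 reads in *Eef1g*-cKO, or 0.0859 and 0.0513 against 2.54 and 0.348 FPKM. *Tet2* had 4 and 3 reads in control against 2 and 2 in *Eef1g*-cKO, or 0.176 and 0.236 against 0.973 and 0.534 FPKM. Both genes were higher in both *Eef1g*-cKO libraries. That held for 24.6% of the genes tested, but these average 1 FPKM or more, so the share is no background for genes as low as *Tet1* and *Tet2*. No listed gene had fewer than 10 reads in the 4 libraries together, so that a gene as low as these in control entered it only with reads in *Eef1g*-cKO. RPM pooled by genotype were 15.3 times higher in *Eef1g*-cKO for *Tet1* (exact 95% counting interval 4.41 to 66.8) and 3.49 times for *Tet2* (0.750 to 13.7). Without the first *Eef1g*-cKO library the *Tet1* ratio was 4.74 (0.428 to 33.0), so that the excess rests on the 8 reads of that library. *Tet1* was called increased by DESeq2 (log2 fold change 4.29, adjusted p = 0.0181) and by edgeR's quasi-likelihood test without a filter (4.11, adjusted p = 0.0315), but not by limma without a filter (adjusted p = 0.256). DESeq2 called 5.94% of genes increased, and edgeR with its filter, which leaves out *Tet1*, 8.75%. *Tet2* was not called by any of them, with an adjusted p of 0.426 in edgeR, 0.330 in limma and none assigned by DESeq2.

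Summed by role, the maintenance pair had 1107 and 1565 RPM in control against 456 and 480 in *Eef1g*-cKO, a mean 2.85-fold lower. The de novo pair had 228 and 254 against 49.1 and 46.6, a mean 5.03-fold lower. The 3 TET genes had 71.4 and 59.2 against 58.1 and 27.0, a mean 1.54-fold lower, with the first *Eef1g*-cKO library close to the second control library. The groups did not overlap for the maintenance and de novo sums. For the TET sum, the gap between 58.1 and 59.2 RPM was smaller than 1 read, which was 4.47 RPM in that *Eef1g*-cKO library. The 13 TET reads of that library held 8 of *Tet1*, so the sum mixes a lower *Tet3* with a higher *Tet1*. Single genes lay below control in both *Eef1g*-cKO libraries for 37.7% of those tested. For all 3 sums an exact permutation test cannot go below 0.333. All 7 members together went from 1407 and 1878 to 563 and 554 RPM. Beside them, S phase genes, which serve DNA replication, summed to 5161 and 6732 against 3609 and 3441, and spermatogonial markers to the values given above.

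**Figure D4:**
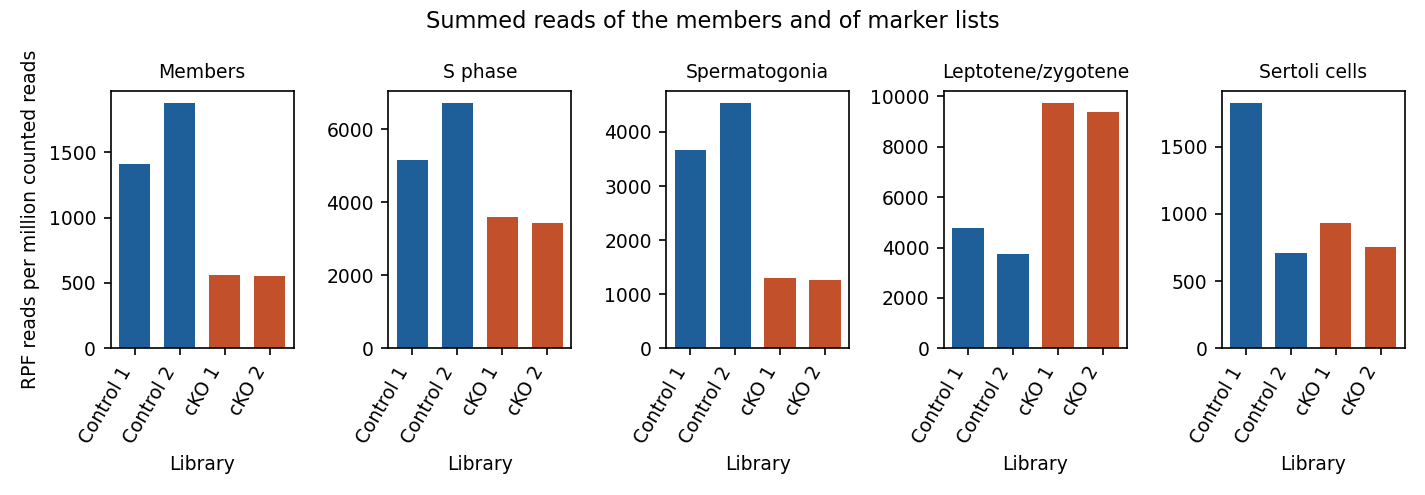
Summed RPF reads (RPM) in each library for the 7 members, for S phase genes and for marker lists of spermatogonia, leptotene/zygotene spermatocytes and Sertoli cells (bars start at 0, blue control, orange *Eef1g*-cKO). The members, the S phase genes and the spermatogonial markers are lower in both *Eef1g*-cKO libraries, and the leptotene/zygotene markers are higher.

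The 3 genes whose log2(FPKM + 1) values over the 4 libraries were nearest to those of *Dnmt1* were *Incenp* (Euclidean distance 0.277), a subunit of the chromosomal passenger complex, *Emg1* (0.489), a ribosome biogenesis factor, and *Mcm2* (0.506), a subunit of the replicative helicase, against 6.66 for the median gene. *Mcm2* itself had 171 and 235 FPKM in control against 46.4 and 48.0 in *Eef1g*-cKO. Nearest to *Uhrf1* were *Sart3* (0.232), a splicing factor, *Eif3h* (0.309), a translation initiation factor subunit, and *Elac2* (0.329), a tRNA processing nuclease, against 5.74 for the median gene. Likeness over 4 libraries is a description of level and of change together.

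Genes that work with the methyltransferases were split. Of 18 tested cofactors of DNA methylation 1 increased and 5 decreased, and their median log2 fold change was -0.29, close to that of all genes. Calls in this list and those below stand beside 2.87% increased and 4.97% decreased over all genes tested. *Uhrf2*, the paralog of *Uhrf1*, had 6.84 and 11.0 FPKM in control against 29.0 and 31.2 FPKM in *Eef1g*-cKO, and it increased by 1.68 on the log2 scale (limma adjusted p = 0.0441). The largest decreases were those of *Cdca7l* (-2.94, limma adjusted p = 0.0225), a relative of the HELLS partner *Cdca7*, and *Morc1* (-2.52, limma adjusted p = 0.0395), which silences transposons in male germ cells, and the other decreased genes were *Cdca7*, *Ehmt2* and *Lig1*. *Hells*, the remodeller that maintenance needs, had 274 and 241 FPKM in control against 262 and 240 in *Eef1g*-cKO, which overlap. *Trim28*, the corepressor that recruits silencing to imprinted loci and transposons and the most abundant of the list, changed by 0.50 without passing (limma adjusted p = 0.177). *Cdca7*, *Ehmt2*, *Lig1* and *Hells* were chosen for naming after their values were seen. *Dppa3*, *Dnmt3c*, *Zfp57* and *Spocd1* were not analysed here.

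The list of methyl-CpG readers held the MBD family, whose binding to methylated DNA was not measured here. Of its 9 tested genes none increased and 1 decreased, *Zbtb33*, which encodes the zinc finger reader Kaiso (-1.95, limma adjusted p = 0.0491), from 10.0 and 9.87 to 1.74 and 1.91 FPKM. *Mbd3*, a subunit of the NuRD complex and the most abundant of the list, changed by -0.87 (limma adjusted p = 0.0842). The list's median log2 fold change was 0.24, but it was negative with any other filter and in each count model. Of 18 tested genes that act with the TET enzymes, in base excision or as their partners, none increased and 4 decreased, with a median of -0.75. These were *Apex1*, the abasic site endonuclease (-2.08), *Parp1*, the poly(ADP-ribose) polymerase that binds strand breaks and the most abundant of the list (-1.48), *Cxxc5*, a CpG-binding protein (-2.04), and *Gadd45g*, a stress-induced growth arrest gene. *Gadd45g* had 63 and 32 reads in control and 0 in both *Eef1g*-cKO libraries. *Tdg* and *Apobec1* were not analysed here.

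The genes that supply the methyl donor S-adenosylmethionine and the TET cosubstrate 2-oxoglutarate had 1 decrease and no increase among 16 tested, with a median of -0.68. The gene called was *Mat2b*, the regulatory subunit of methionine adenosyltransferase (-1.42, limma adjusted p = 0.0479), and *Idh3g*, an isocitrate dehydrogenase subunit and the most abundant of the list, changed by -0.18. *Mat1a*, *Bhmt* and *Gnmt* were not analysed here. Of 20 tested S phase genes 4 decreased and none increased, with a median of -0.73. These were *Mcm2* (-2.06), *Cdc6*, which loads the helicase (-1.45), *Fen1*, the flap endonuclease (-1.22), and *Rrm1*, a subunit of ribonucleotide reductase (-1.13), whereas *Mcm5*, a helicase subunit and the most abundant of the list, overlapped between genotypes (247 and 410 against 315 and 279 FPKM).

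Germline genes whose promoters are methylated in somatic cells, and which loss of DNA methylation is known to switch on there, had a median of 0.78, with 2 of 20 increased and 2 decreased. *Sycp3* (1.38) and *Hormad1* (2.29), which encode proteins of the meiotic chromosome axis, increased, and both also stand in the leptotene and zygotene marker list. *Sycp1* and *Syce1*, which were not called, stand in both lists too. *Tex19.1* (-1.22, limma adjusted p = 0.0383), which restrains retrotransposons, and *Tdrd1* (-1.41, limma adjusted p = 0.0379), a piRNA pathway protein, decreased. *Tex101*, a germ cell surface protein and the most abundant of the list, had 1835 and 2291 FPKM in control against 6072 and 5281 in *Eef1g*-cKO without passing after adjustment (log2 fold change 1.47, limma adjusted p = 0.0519). DNA methylation itself was not measured here.

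**Figure D5:**
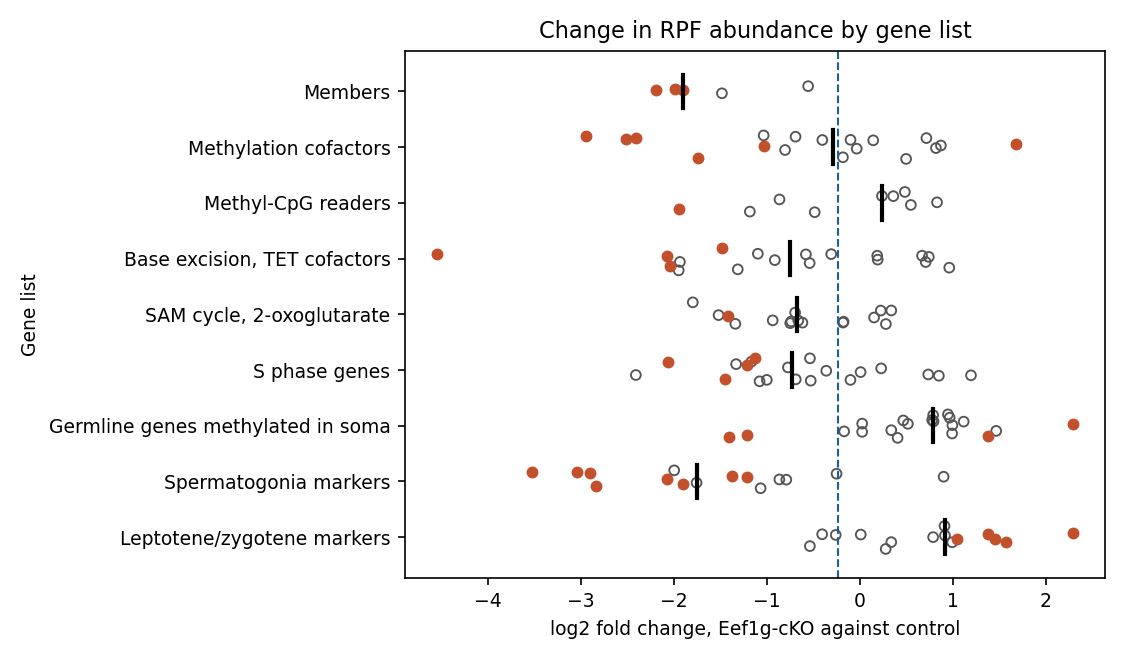
Log2 fold change of each tested gene by list (1 point a gene, filled where called by adjusted p, black bars list medians), with the median of all genes tested at -0.23 as a dashed line. The members' median of -1.90 lies near that of the spermatogonial markers (-1.76), while the leptotene/zygotene markers (0.91) and the germline genes methylated in soma (0.78) lie above the dashed line. The latter lists share *Sycp1*, *Sycp3*, *Hormad1* and *Syce1*.

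Read by coding sequence, the 2 low TET genes also differed from the other members in base composition. The share of G or C at the last codon position was 47.3% in *Tet1* and 46.9% in *Tet2*, against 63.5% to 68.9% in the other 5 members and a median of 60.7% over 11208 genes. *Tet1* and *Tet2* were the members that were higher in *Eef1g*-cKO, on the few reads given above. Genes as low as these in control were listed only if they had reads in *Eef1g*-cKO, so that their direction is no separate result. The part of base composition in it was not tested.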

How the data were processed

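Ribo-seq was analysed in 2 control and 2 *Eef1g*-cKO libraries of leptotene/zygotene spermatocytes from 12 dpp mice. The authors deposited FPKM and, per gene and library, a signal of read counts divided by a size factor. All values (100%) were whole multiples of 1 read within 0.01 reads, which gave back the reads. The deposited table also holds the authors' own fold changes, errors, test scores and p-values, which were not used. The submitters' processing notes name cutadapt, Bowtie and STAR, and the builds mm10 and hg38. The annotation, the read counter and the treatment of reads with several matches are not given in the sources used here.

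The members and gene lists were chosen with earlier results of these data known. Genes averaging 1 FPKM or more were compared on log2(FPKM + 1) with limma 3.58.1 (R 4.3.3, trended prior, 95% intervals) over all 4 libraries without a replicate block. A gene was called at an absolute log2 fold change above 1 and a Benjamini-Hochberg adjusted p under 0.05, or an unadjusted p where stated. Beyond the members, each list names its called genes if at most 4, otherwise the 2 largest changes in each direction, with its most abundant gene. For the 2 most abundant members, the 3 nearest genes are named. Alternatives were other pseudocounts, filters, scaling and prior, edgeR 4.0.16 and DESeq2 1.42.0 on the recovered reads, the replicate block, and leaving out each library. Scripts were tested on simulated data. Gene positions and coding lengths are from RefSeq on GRCm38.p6 (10966 genes matched by symbol, 598 by an older symbol, 34 unmatched), and shared 28-base stretches were sought in GENCODE transcripts. Counting intervals cover counting error only, since RPF reads carry no stated molecular identifiers. At these depths 1 read on 1 kilobase was 0.403 and 0.722 FPKM in control and 4.47 and 2.45 FPKM in *Eef1g*-cKO.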

Additional observations from a re-analysis of the deposited data

How the results depend on the processing

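All log2 fold changes of the 5 tested members stayed negative under every alternative run. The adjusted calls of *Dnmt1*, *Dnmt3a* and *Dnmt3b* were lost with a pseudocount of 0.1 FPKM (-1.92, -2.23 and -2.53, limma adjusted p 0.0540, 0.0572 and 0.0626) and without a trended prior (-1.90, -1.99 and -2.19, adjusted p 0.0702, 0.0633 and 0.0663), which leaves 0 members called, and *Dnmt3b* also without a filter (-2.19, adjusted p 0.0526). Leaving out 1 library at a time gave -2.13 to -1.67 for *Dnmt1*, -2.12 to -1.86 for *Dnmt3a* and -2.45 to -1.93 for *Dnmt3b*, and 0 to 3 members decreased by adjusted p, 0 without either control library. *Tet3* passed the adjusted threshold at -1.91 in edgeR with TMM, with DESeq2 size factors and without a filter, and at -1.94 in DESeq2, and it was left out by a filter of 5 FPKM. *Tet1* passed at 4.29 in DESeq2 and at 4.11 in edgeR without a filter. It was the only member called increased in either fit, whether or not p was adjusted. Over all genes, DESeq2 called 502 increased after adjustment and edgeR without a filter 689. With 3 and 1 reads in control, *Tet1* reached the 10 reads of a listed gene only through its *Eef1g*-cKO reads. Its call is therefore no separate result. Leaving out 1 library at a time, chosen after seeing the data, gave pooled ratios of 4.74 to 34.5 for *Tet1* and 2.71 to 4.93 for *Tet2*. The members' median was -1.37 with a pseudocount of 5 and -1.49 without a filter, where *Tet1* and *Tet2* join it. The median of the methyl-CpG readers turned negative without a filter (-0.13), with a filter of 5 FPKM (-0.49), in edgeR with TMM (-0.0857), DESeq2 size factors (-0.0825) or no filter (-0.0868), in DESeq2 (-0.0904), and ran from -0.18 to 0.30 with 1 library left out, negative without the first *Eef1g*-cKO library. Other causes of these shifts were not tested.

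Centring each library on its median raised every log2 fold change by 0.21 and left the members' calls as they were (*Dnmt1* -1.68, adjusted p 0.0282), while over all genes it gave 521 increased and 383 decreased by adjusted p, against 301 and 521. Genes increased by adjusted p numbered 29 with a pseudocount of 0.1, 0 without a trended prior, 705 in edgeR with TMM, 700 with DESeq2 size factors, 689 without a filter and 502 in DESeq2, and 0 to 537 with 1 library left out (0 without either control library, 537 without the second *Eef1g*-cKO library). Genes decreased numbered 47, 0, 904, 880 and 876 in the first 5 of these settings, and 0 to 1432 with 1 library left out (0 without either control library, 1086 and 1432 without the first and second *Eef1g*-cKO library). Where limma without a trended prior called 0 genes by adjusted p, unadjusted p called 793 increased and 1811 decreased, 4 members among them, and without control library 1 and 2 it called 548 and 479 increased and 1013 and 795 decreased, with 4 and 3 members. In the related lists together, increases by adjusted p, 3 in the main comparison, were 0 with a pseudocount of 0.1, 1 without a filter, 5 with a filter of 5 FPKM, 9 centred, 0 without a trended prior, 11 in edgeR in all 3 settings, 10 in DESeq2 and 0 to 6 with 1 library left out. Their decreases, 17 in the main comparison, were 3 with a pseudocount of 0.1, 10 without a filter, 10 centred, 0 without a trended prior and 0 to 21 with 1 library left out. By unadjusted p, all genes gave 496 increased and 1001 decreased with a pseudocount of 5, 1157 increased centred, 1064 decreased with a filter of 5 FPKM, 958 decreased in DESeq2, and 479 to 999 increased and 795 to 2270 decreased with 1 library left out.

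Libraries share only a replicate number between genotypes, and the deviations from the group means of those numbered alike did not correlate (r = -0.0080 over 10475 genes). With the number as a replicate block, 822 genes decreased by adjusted p against 521, and the same count of 3 members decreased. Depth limits *Tet1*, *Tet2* and the *Eef1g*-cKO values of *Dnmt3a*, *Dnmt3b* and *Tet3*, all from fewer than 10 reads in a library. It also limits genes named from the related lists. Among them, the *Eef1g*-cKO reads were 2 and 4 for *Cdca7l*, 1 and 5 for *Morc1*, 2 and 4 for *Zbtb33*, 1 and 3 for *Cxxc5* and 3 and 8 for *Apex1*.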
